A study of Mus musculus with 62 samples.

Results

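The Myc family loci were examined in CUT&Tag tables of mouse haematopoietic stem and progenitor cells (HSPCs) that had lost the H3.3 chaperone Daxx. The members were all listed sites overlapping Myc from 50 kb upstream to 2 Mb downstream of the gene, and all listed sites overlapping Mycn or Mycl with 50 kb on each side (mm10, GENCODE M21). In the 14 tables used, 1160 of 1743368 listed sites met these limits, of which 954 lay in the Myc domain, 74 at Mycn and 132 at Mycl. A site is a stretch that the study's window test found to differ between the groups of its table, so stretches that did not differ are not listed, and the counts here describe differing stretches only. Each site carries 1 normalized count per library, and it is called gained where the average of the mutant libraries is the higher one and lost where it is the lower one.

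All animals carried the interferon-inducible Mx1Cre transgene (Cre +/-) on a C57BL/6 background and had received pI:pC, which switches the recombinase on in blood-forming and other responsive cells. WT mice were Daxx +/+ Cre +/-, Daxx-KO mice were Daxx F/F Cre +/-, and double-knockout (DKO) mice carried Daxx F/F together with Pu.1 F/F and the same Cre +/- allele, so the controls shared both the transgene and the injections. Bone marrow was collected 3, 8 or 24 weeks post injection (w.p.i.), and Lineage-negative, c-Kit-positive cells were enriched with magnetic beads, which leaves a mixture of progenitor types. Nuclei were profiled for H3K27ac, H3K9me3, H3.3 and Pu.1 at 3 w.p.i., for H3K9me3 and H3K27me3 at 8 w.p.i., and for all 5 targets at 24 w.p.i., and nuclei of 1 mouse served for several antibodies. At 3 w.p.i., however, the Daxx-KO mice used for H3.3 and Pu.1 were not those used for H3K27ac and H3K9me3. Only 1 WT mouse is labelled in both of these sets. Groups held 2 libraries at 3 and 24 w.p.i. and 3 at 8 w.p.i., which limits every comparison below, since an exact permutation test at a single site could not give a p below 0.333 with 2 against 2 or below 0.100 with 3 against 3. No test was run on listed sites, because listing already used the same contrast. In a bulk profile, a shift in the share of a cell type and a shift in signal per cell cannot be told apart.

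Myc, Mycn and Mycl encode basic helix-loop-helix leucine zipper transcription factors that pair with Max and bind E-boxes to promote growth and proliferation. Myc balances self-renewal and differentiation of haematopoietic stem cells, Mycn overlaps with it in function in these cells, and Mycl is used in dendritic cells. In blood, Myc depends on a cluster of enhancers far downstream of the gene, beyond the long non-coding RNA gene Pvt1, which itself holds enhancers and a promoter next to Myc.

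Myc (ENSMUSG00000022346.15) lies on the forward strand at chr15:61985391-61990374. Pvt1 (ENSMUSG00000097039.8, chr15:62037986-62378096) covers 52.6 to 392.7 kb from the Myc start site. The stretch from 1.6 to 1.8 Mb downstream of the start site, where the blood enhancers lie, is called the enhancer interval here; most of it falls in introns of the non-coding gene Gm41335. Mycn (ENSMUSG00000037169.15) lies on the reverse strand at chr12:12936093-12941914, and Mycl (ENSMUSG00000028654.13) on the forward strand at chr4:122995652-123002485.

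The sequences below lie at sites that were listed in the same direction at both 3 and 24 w.p.i. in different mice. Among such sites they were picked for holding a Pu.1 word or E-box or, for the third, for holding none. What words they hold was therefore set by the choice and is not a result. Each is the 300 bases at the middle of the stretch shared by the sites of both times, on the forward strand of mm10. The first, chr15:63658426-63658725, is in the enhancer interval at a stretch gained in H3K27ac, and its capitals mark the Pu.1 word GAGGAAGT. The second, chr15:63659651-63659950, is a neighbouring gained stretch, with the Pu.1 word AGGAAGTG on the reverse strand in capitals. The third, chr15:63647426-63647725, was lost in Pu.1 within the same interval and holds neither word nor an E-box; its capitals mark bases outside masked repeats, which cover 68% of it. The fourth, chr15:62044076-62044375, is an intron stretch of Pvt1 lost in H3K27ac, with 2 copies of the E-box CACGTG in capitals.
Enhancer +1673.2 kb: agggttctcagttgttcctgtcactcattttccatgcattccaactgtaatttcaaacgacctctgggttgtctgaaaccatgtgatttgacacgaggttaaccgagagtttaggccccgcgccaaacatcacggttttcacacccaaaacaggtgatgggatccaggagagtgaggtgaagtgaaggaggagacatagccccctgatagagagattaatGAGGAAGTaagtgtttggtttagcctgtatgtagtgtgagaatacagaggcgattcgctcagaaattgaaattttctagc
Enhancer +1674.4 kb: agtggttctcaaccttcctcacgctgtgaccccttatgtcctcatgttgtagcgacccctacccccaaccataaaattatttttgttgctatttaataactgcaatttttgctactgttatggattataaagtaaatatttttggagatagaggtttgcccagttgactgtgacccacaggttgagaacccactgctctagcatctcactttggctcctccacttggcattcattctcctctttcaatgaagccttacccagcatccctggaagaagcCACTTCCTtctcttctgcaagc
Enhancer +1662.2 kb: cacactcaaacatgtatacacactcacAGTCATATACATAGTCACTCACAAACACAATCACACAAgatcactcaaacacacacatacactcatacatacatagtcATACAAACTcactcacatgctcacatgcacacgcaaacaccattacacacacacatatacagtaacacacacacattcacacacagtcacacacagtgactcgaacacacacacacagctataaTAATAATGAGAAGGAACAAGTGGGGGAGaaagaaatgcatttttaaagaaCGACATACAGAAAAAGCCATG
Pvt1 +58.8 kb: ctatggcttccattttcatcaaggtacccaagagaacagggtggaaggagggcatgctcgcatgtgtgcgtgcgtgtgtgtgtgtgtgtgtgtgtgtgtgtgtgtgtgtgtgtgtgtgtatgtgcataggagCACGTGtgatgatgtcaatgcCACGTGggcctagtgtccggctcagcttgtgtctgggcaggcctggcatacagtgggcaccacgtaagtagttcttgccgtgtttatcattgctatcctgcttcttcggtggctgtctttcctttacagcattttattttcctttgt

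H3K27ac, a mark of active enhancers and promoters, moved mostly in opposite directions in Pvt1 and in the enhancer interval of the Myc domain in Daxx-KO HSPCs. Over the whole domain, 56 sites were gained and 83 lost at 3 w.p.i., which puts the gained share at 40.3% beside 41.3% gained and 58.7% lost of all listed autosomal sites. At 24 w.p.i. 63 were gained and 103 lost, or 38.0% beside 42.5% gained and 57.5% lost. The domain as a whole therefore had a gained share close to that of the genome, and the contrast lay between its intervals.

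Within Pvt1, 4 H3K27ac sites were gained and 49 lost at 3 w.p.i., a gained share of 7.5% (Wilson 95% interval for counting error only, 3.0 to 17.9%). At 24 w.p.i. the counts were 8 and 44 (15.4%, 8.0 to 27.5%). In the enhancer interval 34 sites were gained and 5 lost at 3 w.p.i. (87.2%, 73.3 to 94.4%). At 24 w.p.i. 26 were gained and 17 lost there (60.5%, 45.6 to 73.6%). At both times the interval for Pvt1 lay below the autosomal share and that for the enhancer interval above it. Neighbouring sites are not independent of each other, so these intervals are too narrow.

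**Figure D1:**
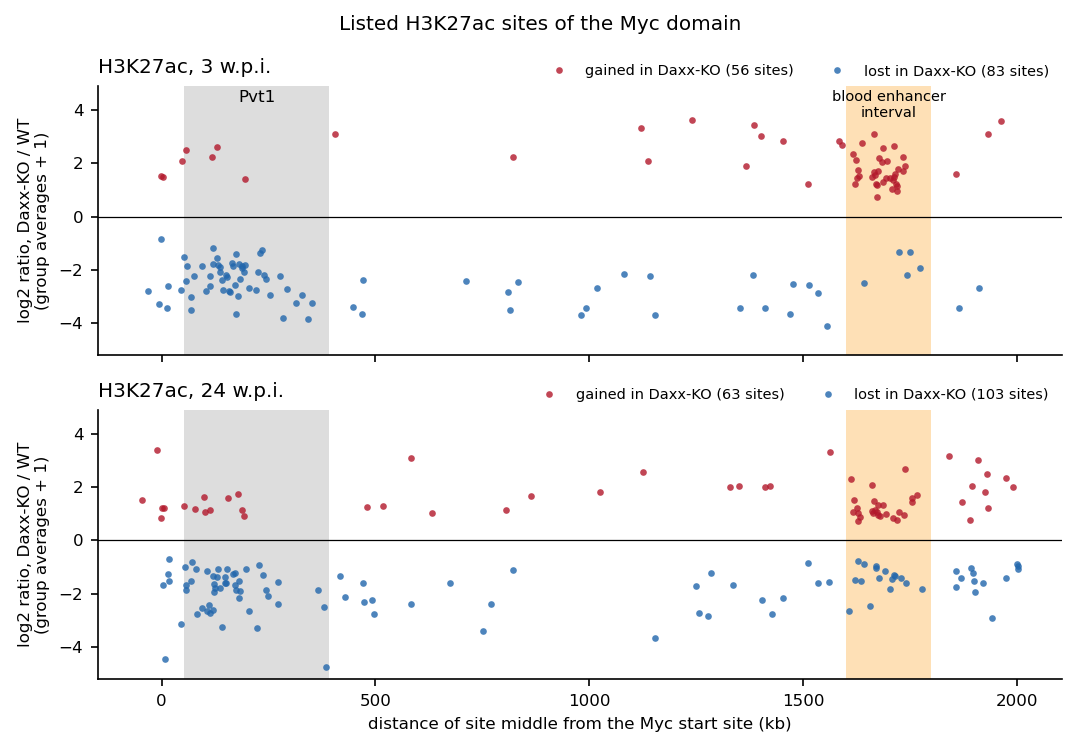
The log2 ratio of Daxx-KO to WT group averages (normalized counts plus 1) is plotted for each listed H3K27ac site against its distance from the Myc start site in kb, at 3 and 24 w.p.i.; red points are gained and blue points lost sites. Lost sites fill Pvt1 (grey, 49 of 53 and 44 of 52), and gained sites cluster in the enhancer interval (orange, 34 of 39 and 26 of 43).

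Summed over its listed H3K27ac sites, Pvt1 held 473 and 365 normalized counts per library in Daxx-KO against 1374 and 1500.5 in WT at 3 w.p.i., over 48.95 kb. At 24 w.p.i. the sums were 1409 and 1563 against 3646 and 3466, over 45.1 kb. The enhancer interval held 3076 and 5962 in Daxx-KO against 2008 and 1632 in WT at 3 w.p.i., over 43.25 kb. At 24 w.p.i. it held 6697 and 7320 against 4410 and 4710, over 42.9 kb. The Daxx-KO libraries did not overlap the WT libraries in any of these 4 sums, although at 3 w.p.i. the second Daxx-KO library carried most of the enhancer gain. These sums cover only listed stretches and so follow what was listed.

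The tallest listed H3K27ac sites of the domain at 24 w.p.i. were 3 gained stretches of the enhancer interval. At +1663.1 kb the 2450-bp site read 1182 and 1307 normalized counts in Daxx-KO and 616.6 and 617.0 in WT at 24 w.p.i. (2.02-fold). At +1672.5 kb, which covers the first sequence above, the values were 1192 and 1478 against 628 and 644 (2.10-fold). The third tall site, at +1719.3 kb, read 885 and 855 against 498 and 520 (1.71-fold). In all 3 the groups were well separated, and the WT libraries themselves were already high, so these stretches carried H3K27ac in WT cells and more of it in Daxx-KO cells.

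At 3 w.p.i. the same stretches were listed as gained. The site at +1661.6 kb read 404 and 454 in Daxx-KO against 195.57 and 107 in WT (2.84-fold). Those at +1672.0 and +1673.2 kb read 251 and 218 against 89.2 and 114, and 209 and 350.0 against 163 and 170. At +1718.9 kb the values were 229 and 346 against 163 and 127. The groups did not overlap at these sites, and the folds at +1661.6 and +1672.0 kb (2.84 and 2.31) exceeded those at 24 w.p.i. At +1617.1 kb the 3 w.p.i. gain was larger in proportion, with 290 and 387 in Daxx-KO against 80.6 and 49.6 in WT (5.20-fold), and its 24 w.p.i. partner at +1618.0 kb read 204 and 277 against 96.1 and 68.8. Other 3 w.p.i. gains rested on the second Daxx-KO library: at +1628.9 kb the libraries read 136 and 579 against 136 and 77.2, and at +1692.8 kb 30.0 and 168 against 36.4 and 34.4, so the groups overlapped at both.

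The 3 and 24 w.p.i. libraries came from different mice, which allows the listed sites to be compared. In the enhancer interval 27 pairs of H3K27ac sites overlapped between the times by at least 1 bp, of which 21 were gained at both, 0 were lost at both and 6 changed direction. In Pvt1 there were also 27 pairs, of which 20 were lost at both, 0 gained at both and 7 opposite. Over the Myc domain 46 of 65 pairs kept their direction (70.8%), beside 59.8% of 42522 autosomal pairs. The overlapping sites made up 38.8% of the 3 w.p.i. and 34.9% of the 24 w.p.i. H3K27ac sites of the domain, beside 37.4% and 20.5% over all autosomes.

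**Figure D2:**
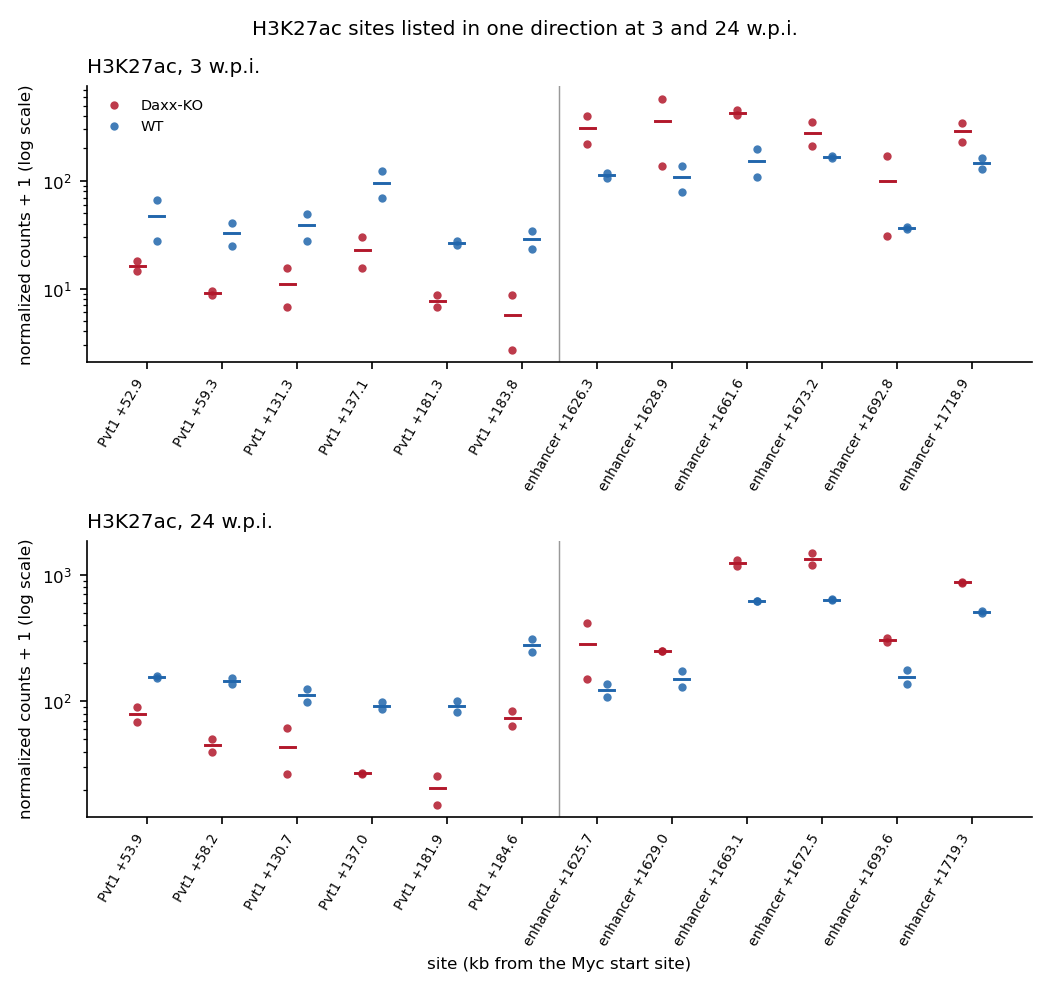
Normalized counts plus 1 on a log axis are shown for 12 H3K27ac sites, the 6 in Pvt1 and the 6 in the enhancer interval with the highest 24 w.p.i. counts among sites listed in the same direction at both times; points are libraries, bars are group means, red is Daxx-KO and blue is WT. Daxx-KO lies below WT at the Pvt1 sites and above it at the enhancer sites, with overlap of the groups only at +1628.9 and +1692.8 kb at 3 w.p.i.

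The Pvt1 losses were lower in level but larger in proportion. At +184.6 kb, in an intron of Pvt1, H3K27ac read 62.9 and 83.4 in Daxx-KO against 244 and 312 in WT at 24 w.p.i. (3.80-fold lower), and the overlapping 3 w.p.i. site at +183.8 kb read 7.75 and 1.70 against 33.3 and 22.1. At +137.1 kb the 3 w.p.i. values were 29.1 and 14.4 against 67.7 and 122 (4.37-fold lower), and at +141.5 kb 23.3 and 7.65 against 82.7 and 83.8 (5.39-fold lower). The site at +59.3 kb that reaches into the fourth sequence above read 7.75 and 8.50 against 23.6 and 39.7 at 3 w.p.i., and its 24 w.p.i. partner read 38.96 and 49.8 against 136 and 152. None of these groups overlapped. A few Pvt1 sites went the other way, such as +195.6 kb, gained at 3 w.p.i. (71.7 and 44.2 against 24.7 and 17.6) and lost in its overlap at 24 w.p.i. (106 and 76.1 against 246 and 145).

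Pu.1, the myeloid and lymphoid ETS-family factor, was lost more often than gained in Pvt1 at both times, with 5 gained and 23 lost sites at 3 w.p.i. (17.9%, beside 54.9% of autosomal Pu.1 sites) and 21 gained and 37 lost at 24 w.p.i. (36.2%, beside 48.2%). In the enhancer interval the Pu.1 counts were balanced, with 3 gained and 4 lost at 3 w.p.i. and 10 gained and 11 lost at 24 w.p.i., beside the same shares. The Pu.1 stretch shown above sits inside the H3K27ac gains at +1661.6 kb (3 w.p.i.) and +1663.1 kb (24 w.p.i.) and was itself lost at both times. It read 59.1 and 55.9 in Daxx-KO against 67.4 and 233 in WT at 3 w.p.i. (2.61-fold lower). At 24 w.p.i. the site at +1662.0 kb read 8.18 and 25.1 against 77.7 and 67.4 (4.36-fold lower). At 3 w.p.i. the difference came mainly from the second WT library, whose mean was 2.75 reads per window, whereas at 24 w.p.i. both WT libraries were high. A second Pu.1 loss at both times lay at +1768.2 and +1768.5 kb in an exon of Gm49019. It read 12.6 and 28.4 against 48.6 and 44.8 and then 0.68 and 1.04 against 41.7 and 71.6. Next to it was a 24 w.p.i. gain at +1767.9 kb (51.8 and 46.0 against 37.4 and 7.37). Scaled by mean reads, the groups overlapped at both 3 w.p.i. losses, at +1662.2 and +1768.2 kb, although both stayed lost. At both 24 w.p.i. losses the groups stayed separate.

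Over the whole domain, 38 Pu.1 sites were gained and 45 lost at 3 w.p.i. (45.8%), and 95 were gained and 106 lost at 24 w.p.i. (47.3%). For H3.3, the histone variant that Daxx deposits, 35 were gained and 32 lost at 3 w.p.i. (52.2%, beside 58.4% gained and 41.6% lost of autosomal H3.3 sites), and 96 were gained and 109 lost at 24 w.p.i. (46.8%, beside 52.6% gained and 47.4% lost). Only 19 H3.3 pairs overlapped between the times, of which 7 kept their direction (36.8%, beside 51.2% of autosomal pairs), and 14 of 26 Pu.1 pairs did so (53.8%, beside 48.1%). H3.3 and Pu.1 sites of the domain as a whole were split near evenly between gains and losses. H3.3 in Pvt1 had 8 gained and 17 lost sites at 3 w.p.i. and 31 gained and 26 lost at 24 w.p.i.

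**Figure D3:**
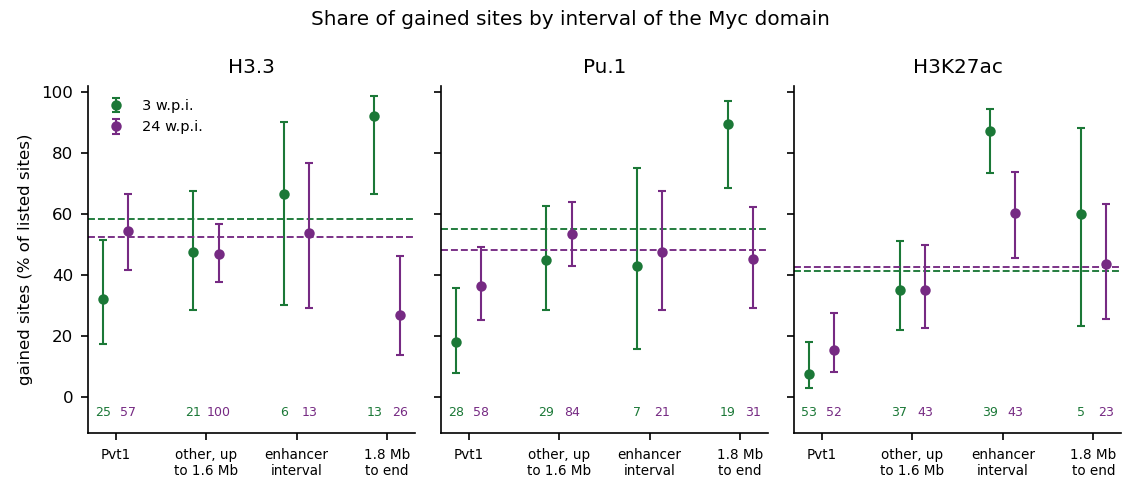
Points give the percentage of listed sites that were gained in Daxx-KO in 4 intervals of the Myc domain for H3.3, Pu.1 and H3K27ac, at 3 w.p.i. (green) and 24 w.p.i. (purple), with Wilson 95% intervals for counting error; small numbers are listed sites and dashed lines the share over all listed autosomal sites. H3K27ac runs from 7.5% and 15.4% in Pvt1 to 87.2% and 60.5% in the enhancer interval, and at 3 w.p.i. H3.3 and Pu.1 are highest in the stretch from 1.8 Mb to the end.

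H3.3 differences of opposite sign lay close together in Pvt1. At +264.4 kb, over an exon of Pvt1, H3.3 read 169 and 170 in Daxx-KO against 1.84 and 0 in WT at 24 w.p.i. At +293.5 kb, in a Pvt1 intron, it read 35.3 and 43.0 against 330 and 122 (5.78-fold lower). Far downstream of Pvt1, at +1341.6 kb, the 3 w.p.i. values were 1.58 and 6.63 against 64.5 and 81.2. The groups were separate at all 3 sites. In the enhancer interval at +1725.9 kb H3.3 was gained at 3 w.p.i. (51.3 and 59.0 against 36.5 and 2.62) and lost at 24 w.p.i., where both Daxx-KO libraries stood at 0 and WT at 72.0 and 62.0.

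The stretch around +1641 kb in the enhancer interval was listed for 3 targets. H3.3 was gained there at 3 w.p.i., with 141 and 152 in Daxx-KO against 36.5 and 0 in WT. H3K9me3, a mark of heterochromatin, was gained at +1641.3 kb at 24 w.p.i., with 222 and 183 against 129 and 99.3 (1.77-fold). H3K27ac was lost at +1641.5 kb at 24 w.p.i., with 140 and 117 against 216 and 258 (1.84-fold lower). The groups did not overlap in any of the 3 in the deposited values. Scaled by mean reads, they overlapped at both 24 w.p.i. sites, so the separation there depends on the scaling. The log2 ratio went from 0.82 to 0.94 for H3K9me3 and from -0.88 to -0.31 for H3K27ac. The nearest H3K27ac sites listed at 24 w.p.i., at +1634.8 and +1655.8 kb, were also lost.

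H3K9me3 sites were sparse in the Myc domain, at 6.33 listed sites per Mb at 3 w.p.i. beside 23.3 over the autosomes, and 15.1 beside 61.1 at 24 w.p.i. At 3 w.p.i. 11 were gained and 2 lost (84.6%, beside 78.9% of autosomal H3K9me3 sites), and at 24 w.p.i. 21 were gained and 10 lost (67.7%, beside 48.1%). The largest 3 w.p.i. gain, at +1799.5 kb in an intron of Gsdmc, read 57.0 and 75.0 against 14.9 and 23.2 (3.47-fold), and 99% of its bases were masked repeats. In Pvt1 at +140.4 kb H3K9me3 read 88.0 and 88.6 against 10.9 and 0 at 24 w.p.i. One pair overlapped between the times (beside 56.8% of autosomal pairs with a kept direction), a Pvt1 stretch lost at both, which read 0 and 0 against 10.5 and 8.12 at +290.5 kb and then 11.5 and 5.21 against 77.7 and 65.6 at +289.9 kb.

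At 8 w.p.i. the domain held few listed sites, and the tables of that time share libraries, so their values are set side by side without a comparison of lists. H3K9me3 gave 7 gained and 2 lost sites in Daxx-KO against WT (beside 66.0% gained over the autosomes), 4 and 2 in DKO against WT (81.2%), and 4 and 3 in DKO against Daxx-KO (72.9%). The groups were separate at 8 of 9, 4 of 6 and 5 of 7 of them (beside 89.0%, 65.6% and 69.6%). Near +1804 kb, in an intron of Gsdmc, H3K9me3 read 18.1, 12.9 and 17.4 in Daxx-KO against 19.8, 63.3 and 31.2 in WT. At +1803.6 kb DKO read 2.16, 13.8 and 6.13 and WT 26.1, 29.1 and 18.6, and at +1803.1 kb DKO read 12.2, 49.0 and 16.8 and Daxx-KO 99.8, 60.9 and 54.6. These contrasts share libraries, so they do not support each other, and the libraries of the groups overlapped at +1803.6 and +1803.1 kb once scaled by mean reads. In the enhancer interval, +1650.7 kb was gained in Daxx-KO (19.9, 16.6 and 26.7 against 7.90, 8.44 and 5.00). For H3K27me3, the mark of Polycomb repression, the domain held 3 gained and 3 lost sites in DKO against WT (beside 55.1%) and 5 gained and 0 lost in DKO against Daxx-KO (beside 65.0%), with separate groups at all 6 and all 5 sites (beside 89.4% and 84.2%).

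H3K27me3 at 24 w.p.i. was lost at 14 of 16 listed sites of the Myc domain (12.5% gained, beside 41.2% of autosomal H3K27me3 sites), 9 of them in the stretch from 1.8 Mb to the end. The gain with the largest difference covered the Myc gene itself at +0.9 kb, with 145 and 88.3 in Daxx-KO against 48.6 and 68.5 in WT (1.99-fold). The largest loss outside that far end was at +46.8 kb, with 1.6 and 0 against 72.8 and 51.4. The groups were separate at both sites.

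The far end of the domain, beyond 1.8 Mb, carries the Gsdmc genes, a cluster of related gasdermin copies, and part of Fam49b. Reads may have been split between the gasdermin copies, which was not tested, so these counts are uncertain. At 3 w.p.i. 12 of 13 H3.3 sites and 17 of 19 Pu.1 sites of this stretch were gained (beside 58.4% and 54.9% of autosomal sites). At 24 w.p.i. 7 of 26 H3.3 sites and 14 of 31 Pu.1 sites were gained (beside 52.6% and 48.2%). At +1928.9 kb, for example, in Gsdmcl-ps, H3.3 read 108 and 125 in Daxx-KO against 35.1 and 5.24 in WT at 3 w.p.i., and the largest 24 w.p.i. loss, at +1929.5 kb, read 51.9 and 39.6 against 192 and 193 (4.2-fold lower). At 3 w.p.i. the E-box CACGTG was in the central 300 bases of 5 of the 12 gained H3.3 sites of this stretch. For Pu.1 it was in 6 of the 17 gained sites, beside 5.45% (H3.3) and 5.32% (Pu.1) of all gained autosomal sites. Some of these windows may lie in related copies and so not be separate cases, which was not tested.

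Myc promoter sites, within 1 kb of an annotated start, differed by target and time. H3K27ac just upstream of the main start was lost at 3 w.p.i., with 63.0 and 42.5 in Daxx-KO against 93.5 and 96.0 in WT (1.8-fold lower at -0.5 kb). At 24 w.p.i. the site over the start at -0.2 kb was gained, with 696 and 725 against 493 and 297 (1.8-fold), as was the intron site at +1.2 kb, with 230.04 and 173 against 97.2 and 75.9 (2.33-fold). The libraries were separate at each of them, although those at -0.5 kb overlapped once scaled by mean reads. A further H3K27ac site upstream, at -1.6 kb, was gained at 3 w.p.i. (29.1 and 89.2 against 17.2 and 22.1), so the 2 sites next to the start went opposite ways at that time.

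Pu.1 over the Myc start was lost at 24 w.p.i., with 16.4 and 25.1 against 48.9 and 48.4 (2.35-fold lower at -0.2 kb). Inside the gene it was gained, at +2.0 kb (176 and 137 against 2.88 and 105) and at +3.4 kb (37.5 and 44.9 against 5.76 and 12.6, 4.48-fold). H3.3 was gained within the gene at 3 w.p.i. (60.01 and 49.4 against 20.3 and 20.95 at +1.6 kb) and upstream of it at 24 w.p.i. (49.7 and 64.5 against 7.38 and 5.64 at -0.8 kb). Both repressive marks were gained inside Myc at 24 w.p.i., H3K27me3 as given above and H3K9me3 at +1.7 kb (29.3 and 40.6 against 12.4 and 7.50). Every one of these groups was separate, although the WT libraries at +2.0 kb were far apart.

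**Figure D4:**
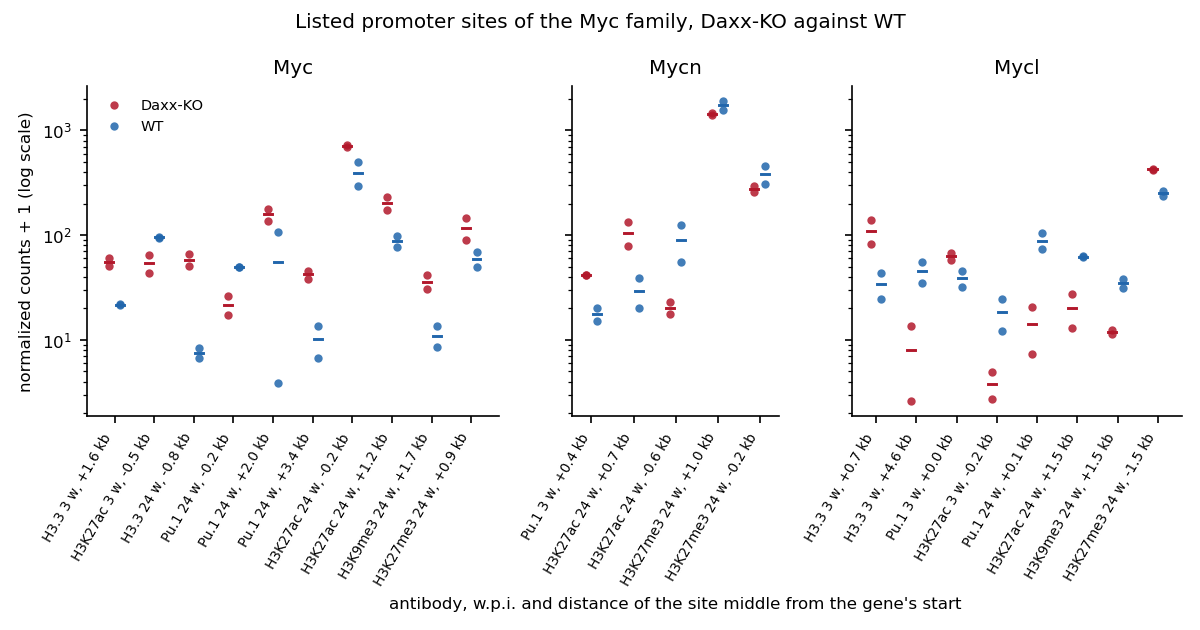
Normalized counts plus 1 on a log axis are shown for each listed Daxx-KO against WT site within 1 kb of a start site of Myc, Mycn or Mycl; points are libraries and bars group means, red for Daxx-KO and blue for WT, and labels give target, w.p.i. and distance from the gene's start. The groups are separate at all of these sites in the deposited values. At Myc, H3K27ac lies above WT at -0.2 and +1.2 kb at 24 w.p.i. and below it at -0.5 kb at 3 w.p.i. Once scaled by mean reads, the groups overlap there and at the H3K27me3 sites of Mycn at +1.0 and -0.2 kb at 24 w.p.i. The Mycn site at +1.0 kb then also turns direction.

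Across the 3 genes, 26 promoter sites were listed, 10 at Myc, 5 at Mycn and 11 at Mycl, of which 16 were gained and 10 lost, and the libraries of the groups were separate at 25 of them. The split is pooled over tables whose gained share among the listed promoter sites of all autosomal protein-coding genes ran from 27.9% to 81.4%, so nothing is read from it. Separation says little on its own, since listed sites were nearly all separate. In the Myc domain it held for 67 of 67 H3.3 (beside 98.4% of autosomal sites), 80 of 83 Pu.1 (98.1%), 133 of 139 H3K27ac (97.6%) and 13 of 13 H3K9me3 sites (99.6%) at 3 w.p.i. At 24 w.p.i. it held for 201 of 205 H3.3 (98.3%), 200 of 201 Pu.1 (98.2%), 163 of 166 H3K27ac (97.3%), 31 of 31 H3K9me3 (97.2%) and 16 of 16 H3K27me3 sites (97.6%).

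The tallest listed site around Mycn was one of H3K27me3 over the gene. There the 24 w.p.i. site at +1.0 kb read 1478 and 1399 in Daxx-KO against 1559 and 1906 in WT (1.20-fold lower), and the site at -0.2 kb read 290.4 and 255 against 304 and 457. Of the 13 listed H3K27me3 sites around Mycn 12 were lost (beside 41.2% gained over the autosomes), with larger proportional losses away from the gene, such as +37.2 kb (137 and 201 against 290.4 and 610, 2.66-fold lower) and +32.4 kb (12.8 and 12.9 against 70.0 and 34.3, 4.07-fold lower). The gain, at +35.2 kb in an exon of 4930519A11Rik, read 27.9 and 29.4 against 5.60 and 9.99. The tall site over the gene differed least, and its direction turned when libraries were scaled by their mean number of reads. With that scaling the groups overlapped at +1.0 and at -0.2 kb. At 8 w.p.i. in DKO, 3 H3K27me3 sites around Mycn were gained and 2 lost against WT (beside 55.1% gained), and 2 were gained and 0 lost against Daxx-KO (beside 65.0%).

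Pu.1 was lost at all 12 sites listed around Mycn at 24 w.p.i. (beside 51.8% lost over the autosomes), with Daxx-KO values between 0 and 26.6 and WT values between 28.8 and 109. The largest, at -20.5 kb, read 1.36 and 0 against 107 and 53.7, and the nearest to the gene, at +2.9 kb, read 1.36 and 15.7 against 57.6 and 40. At 3 w.p.i. 3 were gained and 5 lost (beside 54.9% gained), and the only promoter site was a gain at +0.4 kb (40.2 and 40.5 against 14.1 and 19.2). H3.3 around Mycn was mixed, with 3 gained and 4 lost at 3 w.p.i. (beside 58.4% gained) and 8 gained and 10 lost at 24 w.p.i. (beside 52.6%). At +53.0 kb H3.3 was lost at both times, with 12.6 and 51.6 against 109 and 173 at 3 w.p.i. and 14.4 and 6.79 against 65.5 and 40.4 at 24 w.p.i.

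H3K27ac sites at Mycn were few, 1 gained and 1 lost at 3 w.p.i. and 2 gained and 3 lost at 24 w.p.i. (beside 41.3% and 42.5% gained). At 24 w.p.i. a gain at +0.7 kb (77.2 and 132 against 38.0 and 19.0, 3.67-fold) lay next to a loss at -0.6 kb (16.5 and 22.0 against 125 and 53.8, 4.65-fold lower), with separate groups at both. H3K9me3 gave 1 gained and 1 lost site at 24 w.p.i. (beside 48.1% gained) and no listed site at 3 and 8 w.p.i. around Mycn.

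Mycl was flanked by H3K27me3 losses at 24 w.p.i., with 17 of 18 listed sites lost (beside 58.8% of autosomal H3K27me3 sites). The tallest lay over Mfsd2a, a lysolipid transporter gene upstream of Mycl, at -36.1 kb, with 1582 and 1379 in Daxx-KO against 2334 and 2689 in WT (1.70-fold lower). Scaled by mean reads, this site stayed lost (log2 ratio -0.44 in place of -0.76), but its groups overlapped. Nearer the gene, -11.4 kb read 279 and 157 against 570.4 and 852. The single gain lay just before the Mycl start at -1.5 kb, with 422 and 428 against 264 and 237 (1.70-fold). The losses thus lay on both sides of a promoter site that moved the other way. In the deposited values the groups were separate at 17 of the 18 sites (beside 97.6% over the autosomes).

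In DKO at 8 w.p.i., all 10 H3K27me3 sites listed around Mycl against WT were gained (beside 55.1%), 8 of them with separate groups (beside 89.4%). At +2.9 kb they read 113, 127 and 117 against 75.2, 86.0 and 73.8 (1.52-fold). At -1.3 kb they read 22.6, 28.8 and 39.2 against 13.1, 9.06 and 13.4 (2.55-fold), whereas at -0.4 kb the third DKO library fell within WT (290, 291 and 75.2 against 118, 65.2 and 87.2). Scaled by mean reads, the site at +2.9 kb stayed gained (log2 ratio 0.35 in place of 0.59), but its groups overlapped. Against Daxx-KO, 5 were gained and 3 lost (beside 65.0% gained), the largest gain at -3.6 kb with 40.2, 49.2 and 29.8 against 6.59, 7.61 and 12.5.

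**Figure D5:**
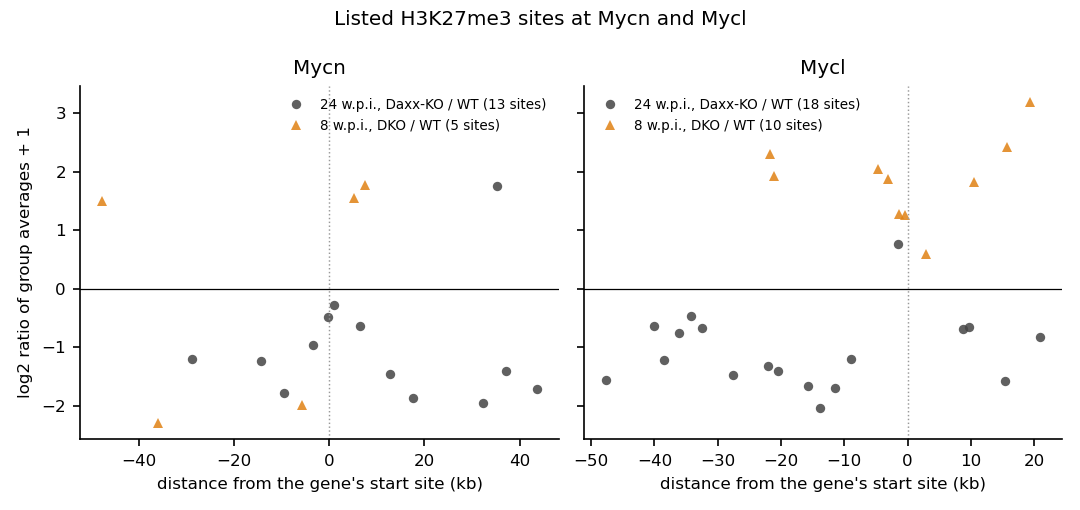
The log2 ratio of group averages plus 1 is plotted for each listed H3K27me3 site against its distance in kb from the start site of Mycn or Mycl, for Daxx-KO to WT at 24 w.p.i. (grey circles) and DKO to WT at 8 w.p.i. (orange triangles). Of the grey points 12 of 13 at Mycn and 17 of 18 at Mycl lie below 0, and all 10 orange points at Mycl lie above 0.

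Over the Mycl start Pu.1 was gained at 3 w.p.i., with 67.0 and 56.7 in Daxx-KO against 30.8 and 44.8 in WT (1.64-fold), and lost at 24 w.p.i., with 19.8 and 6.27 against 72.0 and 103.15 (6.72-fold lower). H3.3 was gained over an exon at 3 w.p.i. (138 and 81.1 against 42.8 and 23.6 at +0.7 kb, 3.3-fold). H3K27ac was lost at the start at 3 w.p.i. (3.88 and 1.70 against 23.6 and 11.03 at -0.2 kb) and in the gene at 24 w.p.i. (12.0 and 26.4 against 60.3 and 62.5 at +1.5 kb). H3K9me3 was lost at the same place at 24 w.p.i. (11.5 and 10.4 against 37.3 and 30.0). Groups were separate at these sites.

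Around Mycl as a whole, 3 H3K27ac sites were gained and 8 lost at 3 w.p.i. (27.3%, beside 41.3%), and 7 were gained and 15 lost at 24 w.p.i. (31.8%, beside 42.5%). The tallest gain lay in Mfsd2a at -39.7 kb, with 1171 and 1380 against 719 and 627 (1.89-fold). In the neighbouring tRNA-modifying gene Trit1 H3K27ac was lost at +23.0 kb, with 119 and 104 against 237 and 274 (2.29-fold lower). H3.3 and Pu.1 sites around Mycl were mixed, at 5 gained and 5 lost and 7 gained and 8 lost at 3 w.p.i. (beside 58.4% and 54.9% gained), and 6 gained and 9 lost and 6 gained and 8 lost at 24 w.p.i. (beside 52.6% and 48.2%). H3K9me3 around Mycl was listed only at 24 w.p.i., with 6 gained and 3 lost (beside 48.1% gained).

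The other genes of the Myc network comprise Max, the shared partner, and its repressive partners Mxd1, Mxi1, Mxd3, Mxd4, Mnt and Mga. They also include the related glucose-sensing branch Mlx, Mlxip and Mlxipl, and Zbtb17, which encodes the Myc-binding transcription factor Miz1. At their promoters at 3 w.p.i., Pu.1 was gained at 9 of 11 genes and lost at Mxd1 (beside 35.2% of all 20780 autosomal protein-coding genes gained and 8.37% lost at the promoter). H3.3 was gained at 5, lost at Mxd1 and moved both ways at Zbtb17 (beside 33.9% gained and 8.63% lost), and H3K27ac was lost at 5 and moved both ways at Mxd4 (beside 26.1% lost). Many of the other genes had no listed promoter site, and among listed promoter sites 76.0% of Pu.1, 76.4% of H3.3 and 27.9% of H3K27ac were gained at 3 w.p.i., so the network genes moved in the direction of most promoters. At 24 w.p.i. Pu.1 was lost at 7 and moved both ways at 3 (beside 22.5% and 17.5%), H3K27ac was gained at 5, lost at Mlxipl and moved both ways at 5 (beside 20.9%, 16.7% and 27.9%), and H3K27me3 was lost at 10 and not listed at Mlxip (beside 40.7% lost). H3.3 at 24 w.p.i. was gained at 4, lost at 3 and moved both ways at 3 (beside 21.5%, 17.7% and 15.7%), and H3K9me3 was gained at Mxd1 and Mxi1 and lost at 5 (beside 20.2% gained and 9.87% lost). Summed over listed network promoters, Pu.1 was 2251 and 2253 in Daxx-KO against 722 to 1055 in WT at 3 w.p.i., and 445 to 567 against 1141 to 1382 at 24 w.p.i. The Pu.1 sums of the mast cell and basophil list moved likewise, but through Gata2 alone at 3 w.p.i. and through Gata2 and Mitf at 24 w.p.i. They were 273 to 340 against 83.1 to 122 at 3 w.p.i. and 48.1 to 59.98 against 274 to 296.5 at 24 w.p.i. The erythroid list was higher in Pu.1 at 3 w.p.i. (741 to 772 against 256 to 367). At 24 w.p.i. its groups overlapped (90.7 to 172 against 92.1 to 218). In the B-cell and neutrophil lists the groups overlapped at 3 w.p.i. At 24 w.p.i. both were higher in Daxx-KO (410 to 523 against 215 to 245, and 142 to 147 against 89.2 to 105). The T-cell list was lower at both times (171 against 201 to 224, then 128 to 153 against 162 to 344). The HSPC list was higher at 3 w.p.i. (181 to 184 against 141 to 175) and overlapped at 24 w.p.i. Among the network genes, H3K9me3 at 3 w.p.i. was lost at Zbtb17 alone (beside 1.22% lost). At 8 w.p.i. H3K27me3 was gained at Mlxipl in DKO against WT (beside 12.5% gained). It was lost at Mxd1 in DKO against Daxx-KO (beside 8.61% lost). The groups overlapped at both, with 41.4 to 197 against 48.9 to 63.9 and 2.48 to 11.3 against 7.9 to 77.4. H3K9me3 was listed at none of them at 8 w.p.i. (beside 1.86% to 2.33% of all genes gained and 0.38% to 1.41% lost).

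Few sites of the domain held a Pu.1 word. Either Pu.1 word, GAGGAAGT or AGGAAGTG (which share AGGAAGT and were searched on both strands), was found in the central 300 bases of 0 of 38 gained and 2 of 45 lost Pu.1 sites of the Myc domain at 3 w.p.i., and in 5 of 95 gained and 5 of 106 lost at 24 w.p.i., beside 3.49%, 4.47%, 3.88% and 4.05% of autosomal sites. Of the gained H3K27ac sites of the enhancer interval, 2 of 34 at 3 w.p.i. and 3 of 26 at 24 w.p.i. held a Pu.1 word, beside 4.9% and 4.73%. The E-box was found in 8 of 35 gained and 0 of 32 lost H3.3 sites and in 6 of 38 gained and 1 of 45 lost Pu.1 sites of the domain at 3 w.p.i. (beside 5.45%, 4.08%, 5.32% and 4.05%), most of the gained ones in the Gsdmc copies described above. At 24 w.p.i. it was in 4 of 96 gained and 2 of 109 lost H3.3 sites and in 4 of 95 gained and 2 of 106 lost Pu.1 sites (beside 3.86%, 4.04%, 3.89% and 4.26%). In 300-base RefSeq promoters of mm10, 5.66% hold a Pu.1 word and 7.15% hold CACGTG. RefSeq windows of Mycn and Mycl hold none of the words, and Myc has no entry.

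H3K27ac at promoters of marker genes moved with these results, and its part in them was not tested. At 24 w.p.i. sites at the neutrophil list (S100a8, S100a9, Ltf, Ngp, Camp, Mmp8, Cxcr2 and Retnlg) summed to 25234 to 26882 in Daxx-KO against 13170 to 14690 in WT, with 7 of 8 genes gained and Ltf moving both ways (beside 20.9% of all autosomal protein-coding genes gained, 16.7% lost and 27.9% both ways). The erythroid list summed to 347 to 422 against 1467 to 1553, with 5 of 8 lost and Epor, Gata1 and Alas2 without a listed site, of which the X-linked Gata1 and Alas2 could have none because reads on X were left out at that time. The HSPC list summed to 5370 to 5757 against 2629 to 2966, with 4 of 7 gained and Cd48 lost. At 3 w.p.i., when 8.32% of all these genes were gained, 26.1% lost and 5.93% moved both ways, the neutrophil list summed to 93.0 to 97.7 against 19.9 to 20.4 (2 of 8 gained, the other 6 without a listed site), the erythroid list to 203 to 242 against 290.1 to 450.1 (5 lost, Hbb-bt gained), and the HSPC list to 909 to 1097 against 381 to 418 (5 gained, Kit both ways). The B-cell list had 2 genes gained and 2 lost of 8 at 3 w.p.i. and 3 and 1 at 24 w.p.i., the T-cell list 0 and 2 and then 0 and 3 of 6, and the mast cell and basophil list 1 and 2 and then 2 and 2 of 5. The defining marker Kit had listed H3K27ac sites at both times, and granulocyte genes had them in both genotypes at 24 w.p.i. as well.

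Depth differed between libraries. Libraries held a mean of 1.21 to 33.8 reads per window (3 w.p.i.), 0.20 to 3.29 (8 w.p.i.) or 3.97 to 10.3 (24 w.p.i.), so that the 8-week counts are the least certain. At 3 w.p.i. the first WT library stood apart in H3.3 and Pu.1, with means of 22.9 and 33.8, beside 3.06 and 2.75 in the second. The H3K27ac libraries of that time held means of 1.33 to 2.26.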

How the data were processed

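CUT&Tag cuts and tags DNA around an antibody-bound protein or histone mark. Per the submitters' processing notes, reads were handled with CASAVA 1.8.4, cutadapt 1.13, STAR 2.5.3 and bedtools on mm10. The authors compared groups with diffReps 1.55.6, which counted reads in 600-bp windows moved by 50 bp (fragment size 100 bp), applied a negative binomial test with a window p cutoff of 0.0001 and merged windows into sites. The deposited values are normalized counts, the reads of a site divided by a constant of the library, and multiplying it back gave whole reads (within 0.05) for 100% of the low values tried in every library. The tables also hold group averages, fold changes, p-values and directions of the authors' own comparison, which were not used. Reads on X and Y were left out at 24 w.p.i.

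Of the tables, 14 were used and 1 was left out, the 8 w.p.i. H3K27me3 comparison of Daxx-KO with WT, whose controls are labelled H3K9me3; 54 of 62 libraries were used, and 8 DKO libraries of 24 w.p.i. were not analysed here. Group averages were computed from the libraries, log2 ratios on averages plus 1, and shares with Wilson 95% intervals (counting error only). Overlap required 1 bp. Promoters were 1 kb around GENCODE M21 starts, and promoter counts were set beside those of all autosomal protein-coding genes. Nothing was tested across sites, since listing had used the same contrast. Named sites were every promoter site, the 2 gained and 2 lost sites per table with the largest difference and separate groups in the Myc domain (1 and 1 at Mycn and Mycl), and enhancer interval sites that overlap one of another time; further Pvt1, Mycn and Mycl sites were named after their values were seen. The members, the network list and the marker lists were chosen with earlier results of these data known. As alternatives, other flanks, a count minimum, sites outside gene bodies, other overlaps, another scaling and leaving out each library were tried; shares of Pvt1 and the enhancer interval were added after seeing the data. The scripts, run in Python 3.11.15 (scipy 1.17.1, pandas 2.3.3, numpy 2.4.6), were tested on simulated data.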

Additional observations from a re-analysis of the deposited data

Results flagged for a closer look

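At 2 promoters the same target was listed in opposite directions at 3 and 24 w.p.i., with every library of Daxx-KO on one side of WT at one time and on the other side at the other in the deposited values; the difference between the times was not tested. H3K27ac at the Myc promoter had a log2 ratio that was 1.68 higher at 24 than at 3 w.p.i., between the lost site at -0.5 kb and the gained site at -0.2 kb. Scaled by mean reads, the 3 w.p.i. site stayed lost (log2 ratio -0.50 in place of -0.83), but its libraries then overlapped, so its separation depends on the scaling. Pu.1 at the Mycl promoter had a log2 ratio that changed by -3.36 from 3 to 24 w.p.i., between the gained and the lost site over the start. The sites of the 2 times came from different mice and separate tables. Among overlapping pairs of autosomal sites, only 59.8% of H3K27ac and 48.1% of Pu.1 pairs kept their direction between these times. A change of direction was therefore common and not particular to these promoters.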

How the results depend on the processing

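No test was run, so the results are shares and counts. No paired analysis was possible because no result comes from a test. Of 371 alternative values, 327 moved within the counting interval or 1.5 times the count, 42 moved further and 2 changed direction; a further 6 could not be computed because no site was left. The gained share of H3K27ac in Pvt1 stayed at 6.25 to 9.52% (3 w.p.i.) and 13.5 to 19.5% (24 w.p.i.), and that in the enhancer interval at 77.3 to 89.0% and 51.5 to 67.6%, except outside gene bodies, where 1 site at 3 w.p.i. left 0%. At 20 or more counts in the higher group, the H3K27ac share of the domain at 3 w.p.i. turned to 50.6% and that of H3K9me3 became 100% (3 sites). Outside gene bodies, the shares at 3 w.p.i. were 38.5% (H3.3), 19.0% (H3K27ac) and 100% (H3K9me3, 1 site), and those at 24 w.p.i. 57.9% (Pu.1) and 0% (H3K27me3).

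With flanks of 100 and 25 kb, Mycn had 13 and 3 gained and 17 and 5 lost H3.3 sites at 24 w.p.i., 9 gained Pu.1 sites at 100 kb and 0 gained H3K27me3 sites at 25 kb. For Mycl at 3 w.p.i. they gave 11 and 1 gained H3.3 sites with 8 lost at 100 kb, 13 and 2 lost Pu.1 sites with 4 gained at 25 kb, and 5 and 1 gained H3K27ac sites with 4 lost at 25 kb and 5 lost at 20 or more counts. At 8 w.p.i. 16 H3K27me3 sites were gained in DKO against WT at 100 kb. At 24 w.p.i. Mycl had 11 and 2 gained H3.3, 14 and 2 gained and 13 and 5 lost Pu.1, and 14 and 3 gained and 26 and 7 lost H3K27ac sites, with 5 gained H3K27me3 sites at 100 kb and 10 lost at 25 kb. Leaving out 1 library gave 1 to 2 gained H3K27me3 sites there, with 2 without the second WT library. Pairs with a kept direction numbered 3 (H3.3) and 0 (H3K9me3) when at least 50% of the shorter site had to be shared, and 16 (H3.3), 85 (H3K27ac) and 2 (H3K9me3) within 1 kb. Promoters of 3 kb gave 18 lost sites. Scaling by mean reads shifted the log2 ratios of all sites by -0.60 to 0.56 between tables, and 1 of 156 named sites, H3K27me3 at +1.0 kb of Mycn, turned direction. The cause of these changes was not tested.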
